A study of Mus musculus with 24 samples.

Results

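DNA transposon repeat types are the rows of the RNA read count tables in which the copies of one DNA transposon family of the mouse genome were added together. They were taken by name, as the rows whose name starts with DNA and joins a superfamily to a type, and 236 of the 1035 repeat types met this rule, among 56326 rows of genes and repeats. The study asked what the endogenous retrovirus MERVL does in early mouse embryos, and depleted its transcripts with antisense oligonucleotides (ASOs). Total RNA was sequenced from embryos at the 2-cell stage (1.5 days post-coitum) and at the 4-cell and 8-cell stages (both labelled 2.5 days post-coitum). MERVL-KD embryos had received MERVL ASOs and control embryos a scrambled ASO, and each of the 6 groups held 2 libraries of 30 embryos freed of the zona pellucida. All zygotes came from superovulated 8-week-old B6D2F1 females mated with B6D2F1 males, were injected into the male pronucleus at 20 µM and were cultured in KSOM medium. The background strain is labelled BDF2, while the mice are described as B6D2F1 (BDF1). Each library pools whole embryos, and nothing states whether the 2 libraries of a group came from separate mice or days, so the p-values measure only the spread between these libraries.

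The oligonucleotides that define the groups are shown because they are what sets MERVL-KD and control embryos of a stage apart in the labels. Capitals mark the 2′-O-methoxyethyl ends, at positions 1 to 5 and 15 to 20 from the first base listed, around a plain DNA gap of the kind that lets RNase H cut the bound RNA.
MERVL-ASO1: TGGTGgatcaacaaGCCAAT
MERVL-ASO2: CATTTgtctgtttaCCACGA
MERVL-ASO3: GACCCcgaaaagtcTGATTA
Scramble-ASO: AGCGCgggtattgaACCAGG

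DNA transposons move by cut and paste: a transposase binds the inverted repeats at the ends of the element, excises it and inserts it elsewhere. In mice and most other mammals these families no longer move, and what remains are short, mutated copies, many of them internally deleted relatives that never encoded a transposase. The families with most copies belong to the hAT superfamily, with its Charlie, Tip100 and Blackjack branches, and to the Tc1/mariner superfamily, with its Tigger branch, while piggyBac elements are rare. Copies lie between genes, in introns and in untranslated exons, so a read on a copy may come from a transcript of the element or from a longer transcript that runs through it. The rows used here give no positions, and these sources were not separated.

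The 12 libraries held between 28167085 and 41482526 counts each. Between 33456 and 58880 of them lay on DNA transposon types, or 0.0868% to 0.167% of a library. The narrowest and widest 95% Clopper-Pearson intervals were 0.0859% to 0.0877% and 0.165% to 0.168%, for the control libraries with the lowest and the highest share. Intervals cover counting error only, since reads carried no molecular identifiers. As a check of the labels, MERVL-int took 6.33% and 6.57% of the counts in control 2-cell libraries and 0.157% and 0.143% in MERVL-KD 2-cell libraries. In 8-cell libraries it took 1.07% and 1.08% in controls and 0.0278% in both MERVL-KD libraries. Of 9 cumulus cell markers, those of the cells that surround the egg, the summed level was 2.33 to 7.37 CPM, the usual counts scaled to library size, here with TMM factors (trimmed mean of M values), in all 12 libraries. The summed level of 6 markers of the 2-cell stage was 419 and 502 CPM in control and 248 and 298 CPM in MERVL-KD 2-cell libraries. In control 4-cell libraries it was 99.6 and 103 CPM. The summed level of 8 markers of later cleavage was 697 and 755 CPM in control and 554 and 600 CPM in MERVL-KD 8-cell libraries. In control 2-cell libraries it was 161 and 175 CPM. Single markers departed from these sums. From the control 2-cell to the 4-cell stage Tdpoz4, of the first list, had 85.0 and 86.0 CPM in the group means. Sox2, of the second, fell from 5.76 to 0.292 CPM. The summed level of 5 oocyte markers was 1060 and 1116 CPM in control and 667 and 763 CPM in MERVL-KD 2-cell libraries. The sums of these marker lists thus differed between the conditions at the stages compared, and their part in the results on transposons was not tested.

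Every type had at least 1 count somewhere, but most were rare. Over the 12 libraries together, 34 types had fewer than 10 counts, 62 had 10 to 99, 95 had at least 100 but under 1000, 40 had at least 1000 but under 10000, and 5 had 10000 or more. A filter on low values left 157 types in the fit of all 12 libraries, and 132, 138 and 131 types in the fits of the 2-cell, 4-cell and 8-cell libraries. In all, 78 types entered no test, and the most abundant of these had 80 counts over the 12 libraries.

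A few rodent families made up most of the signal. URR1A and URR1B, short non-autonomous hAT-Charlie elements of rodents, together took 49.8% of all counts on DNA transposons, between 47.7% and 51.4% in single libraries. The 5 most abundant types, URR1A, URR1B, RCHARR1, MER2 and Charlie1a, took 68.5%, and the 10 most abundant 75.4%. Of 4 rodent names chosen for description, URR1A, URR1B and RMER30 had a row. RCHARR1 is not on that list and is described here because the rule on abundance named it. Levels are comparable between types only per length, here as CPM per kilobase of the mean length of a type's copies, which ranged from 106 to 991 bases over the 236 types. How many copies a type has was not used, so these values are not levels per copy.

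Per kilobase, URR1A had the highest mean over the 12 libraries, at 1766 CPM per kilobase (1202 to 2351 in single libraries). URR1B followed at 1570 CPM per kilobase (1203 to 2034), and the ranges of both overlapped. MER2, a short relative of the Tigger elements, had 324 CPM per kilobase (258 to 388) and RCHARR1, of the hAT-Charlie branch, 276 CPM per kilobase (224 to 342), which also overlapped. Charlie1a came next at 105 CPM per kilobase (63.9 to 146). MER20, MER58B, MER58A, Tigger5b_Glire and MER33 lay between 60.7 and 77.2 CPM per kilobase in their means, and the order among these 5 was within their spread over the libraries. MMAR1, a mariner element, Tigger17a and Tigger1 were among the 10 highest in CPM but lower per kilobase, at 37.4, 44.6 and 26.9 CPM per kilobase.

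**Figure D1:**
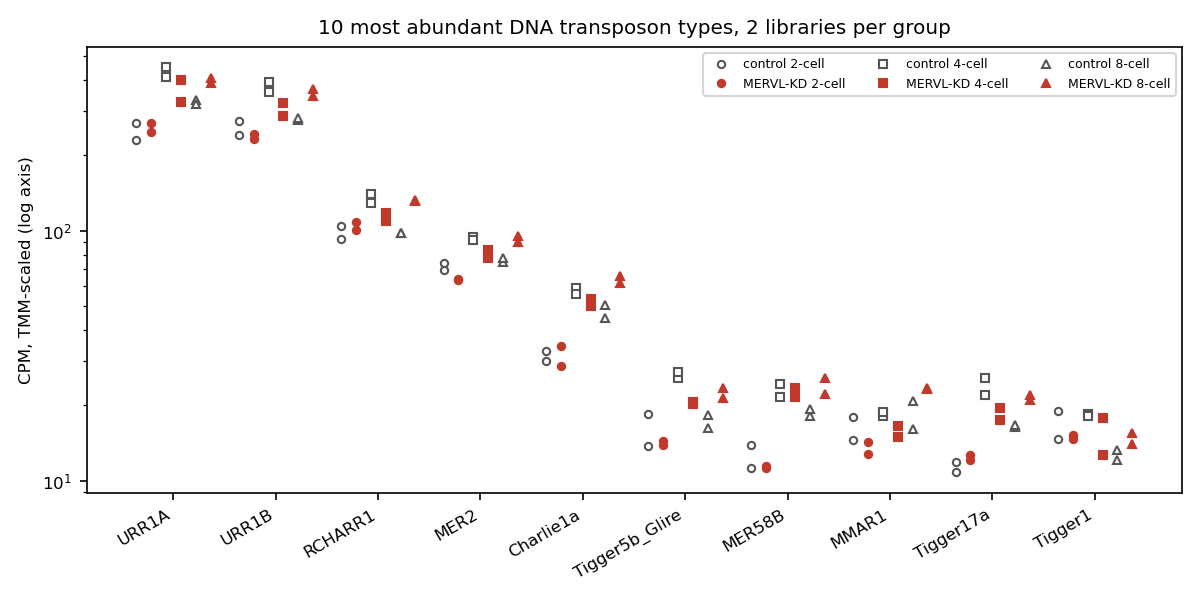
Levels of the 10 most abundant DNA transposon types in each library, as TMM-scaled CPM on a log axis; 2 points per group, open for control and filled for MERVL-KD, with circles, squares and triangles for the 2-cell, 4-cell and 8-cell stages. URR1A and URR1B lie above 229 CPM in every library, and for each of the 10 types both MERVL-KD 8-cell points lie above both control 8-cell points.

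The types fell into 20 superfamily names. The 80 hAT-Charlie types carried 77.1% of the counts and the 50 TcMar-Tigger types 15%. The 40 hAT-Tip100 types carried 3.09%, the 7 hAT-Blackjack types 1.68% and the 3 TcMar-Mariner types 1.44%. The single piggyBac type, Looper, carried 0.230%. The other 14 superfamily names together held fewer counts than the mariner types.

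The summed level of all 236 types differed between MERVL-KD and control in opposite ways at the 4-cell and the 8-cell stage. At the 2-cell stage the sum was 1113 and 987 CPM in the control libraries and 1057 and 989 CPM in the MERVL-KD libraries, so the groups overlapped. At the 4-cell stage it was 1540 and 1633 CPM in controls and 1244 and 1412 CPM in MERVL-KD, and every MERVL-KD library lay below every control library. At the 8-cell stage it was 1214 and 1210 CPM in controls and 1480 and 1510 CPM in MERVL-KD, and every MERVL-KD library lay above every control library. The mean of the MERVL-KD libraries was 2.54% lower, 16.3% lower and 23.4% higher than that of the controls at the 3 stages, with n = 2 a group and no test of a sum. In bulk samples, fewer cells of a type and less RNA per cell cannot be told apart, and these levels are relative to the other transcripts of the same embryos.

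The 4-cell and 8-cell differences did not rest on the abundant types alone. Without the 5 most abundant types the summed level was 497 ± 11.7 CPM in control and 415 ± 30.2 CPM in MERVL-KD 4-cell libraries (SD, n = 2). At the 8-cell stage these values were 384 ± 3.83 and 454 ± 8.55 CPM (SD, n = 2). The direction at both stages was the same with 4 ways of scaling the libraries, but at the 2-cell stage it was not. As a share of all counts, the types took 0.104% and 0.0868% of the control and 0.1252% and 0.115% of the MERVL-KD 2-cell libraries, so that MERVL-KD was higher there by this measure. With that scaling the median of all rows was 0.23 on the log2 scale at the same stage, and relative to this median the log2 ratio of the sums was 0.10.

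**Figure D2:**
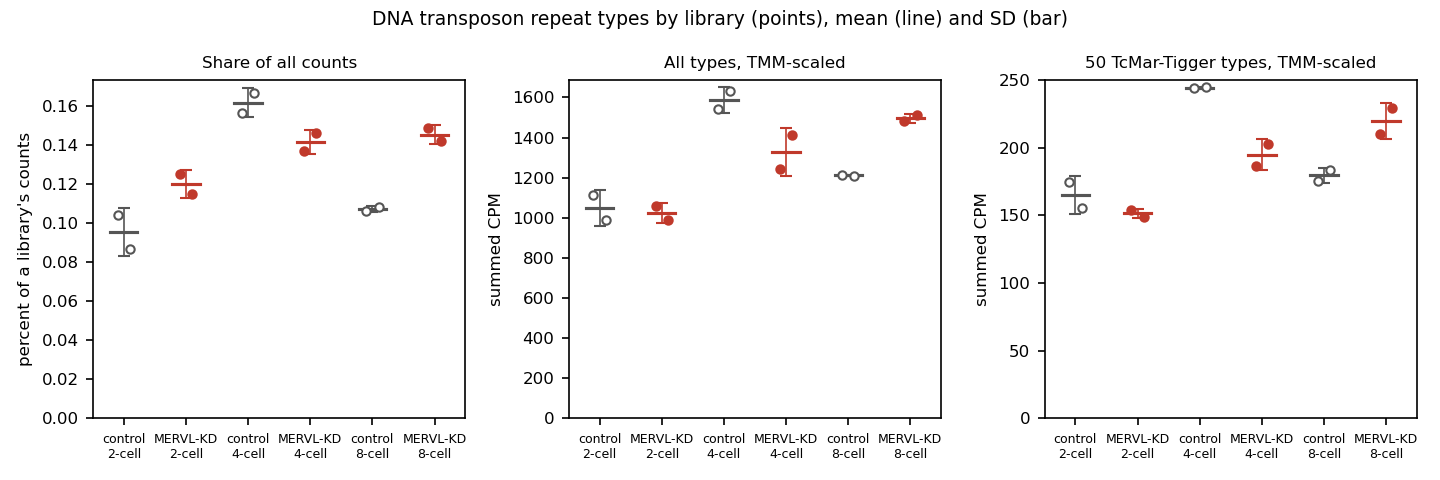
DNA transposon types by library, as a percent of all counts (left), as the summed TMM-scaled CPM of all types (middle) and of the 50 TcMar-Tigger types (right); points are libraries, lines are means and bars are SDs of the 2 libraries of a group. In the middle panel MERVL-KD lies below control at the 4-cell stage (1244 and 1412 against 1540 and 1633 CPM) and above it at the 8-cell stage (1480 and 1510 against 1214 and 1210 CPM).

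The superfamilies with most counts shared this course. The hAT-Charlie types summed to 1184 and 1279 CPM in control and 954 and 1100 CPM in MERVL-KD 4-cell libraries, and to 945 and 933 CPM in control and 1153 and 1176 CPM in MERVL-KD 8-cell libraries. The TcMar-Tigger types summed to 244 and 245 CPM in control and 187 and 203 CPM in MERVL-KD 4-cell libraries. In 8-cell libraries they summed to 176 and 184 CPM in control and 210 and 229 CPM in MERVL-KD. In neither branch did the groups overlap at these stages. The hAT-Tip100 types departed from it at the 4-cell stage, with 44.0 and 41.6 CPM in control and 50.6 and 55.0 CPM in MERVL-KD. This came with a single type, FordPrefect: without it, the other 39 hAT-Tip100 types summed to 31.6 ± 0.953 CPM in control and 30.2 ± 3.54 CPM in MERVL-KD (SD, n = 2). The hAT-Blackjack types summed to 22.4 CPM in both control and to 14.99 and 18.5 CPM in the MERVL-KD 4-cell libraries. Their 8-cell values overlapped, at 21.4 and 21.6 CPM in control and 24.2 and 18.8 CPM in MERVL-KD.

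At the 2-cell stage, where MERVL-int was most abundant, few types moved. Of 132 tested, 2 were called higher in MERVL-KD, with a 2-fold change or more and an adjusted p under 0.05, and none lower. Of all 21347 rows, 6.47% were called, 4.26% higher and 2.22% lower. MER121, a type of uncertain place in the hAT group, had 1.82 and 1.40 CPM in control and 3.40 and 3.62 CPM in MERVL-KD. Its log2 fold change was 1.21 ± 0.33 (SE; adjusted p = 0.0214). Kanga1d, a rare Tc2-like element, had 6 and 8 counts in control and 27 and 54 counts in MERVL-KD, for a log2 fold change of 2.45 ± 0.69 (SE; adjusted p = 0.0269). Both calls rested on the spread of the 4 libraries of this stage. In one fit of the 12 libraries MER121 had a log2 fold change of 1.12 and Kanga1d of 2.37, with adjusted p = 0.113 and 0.203, and neither was called there, nor when any of the 12 libraries was left out of that fit, where adjusted p ranged from 0.107 to 0.512 and from 0.145 to 0.702.

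Charlie24, a hAT-Charlie type, passed the adjusted p without reaching 2-fold. It had 8.93 and 8.31 CPM in control and 4.87 and 4.58 CPM in MERVL-KD 2-cell libraries, which did not overlap (log2 fold change -0.78 ± 0.22, SE; adjusted p = 0.0244). With no threshold on fold, 3 types were called, 2 higher and 1 lower, against 14% of all rows, 6.74% higher and 7.23% lower. BLACKJACK, which gives the hAT-Blackjack branch its name, had the next smallest p among types with a higher level (log2 fold change 0.64 ± 0.23, SE; adjusted p = 0.0843). Tigger10 had 47 and 48 counts in control and 19 and 20 in MERVL-KD (log2 fold change -1.39 ± 0.51, SE; adjusted p = 0.0848). Tigger9a had 11 and 17 counts in control libraries against 3 and 0 in MERVL-KD, a level 10.7-fold higher in control with a 95% counting interval of 3.30 to 54.9, and an adjusted p of 0.0968. The 132 types were spread on both sides of zero: 70 had a higher and 62 a lower level in MERVL-KD, with a median log2 fold change of 0.07, beside 0.02 over all rows. Groups did not overlap for 23 types with a higher level in MERVL-KD (17.4% of those tested, beside 23.9% of all rows) and for 33 with a lower level (25%, beside 33.3%).

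At the 4-cell stage the levels of most tested types were lower in MERVL-KD, by amounts that few single types could show on their own. Of 138 tested, 105 had a lower level and 33 a higher level in MERVL-KD, with a median log2 fold change of -0.29, beside 0.01 over all rows. In 65 types, or 47.1%, every MERVL-KD library lay below every control library, beside 27% of all rows, and in 10 types, or 7.25%, above, beside 27.3% of all rows. All of the 10 most abundant types had a lower level in MERVL-KD, 9 of them with no overlap. URR1A had 412 and 449 CPM in control and 326 and 398 CPM in MERVL-KD. URR1B had 358 and 391 CPM in control and 288 and 324 CPM in MERVL-KD, with a log2 fold change of -0.29 ± 0.09 (SE; adjusted p = 0.0798). Its groups did not overlap, but the call was not made.

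Only 2 of the 138 types were called at this stage, 1 in each direction, against 4.46% of all 20505 rows, 2.58% higher and 1.87% lower. FordPrefect, a hAT-Tip100 element, rose: it had 13.1 and 9.28 CPM in control and 22.9 and 22.3 CPM in MERVL-KD, with a log2 fold change of 1.02 ± 0.20 (SE; adjusted p = 0.00688). Tigger23a, a Tigger element, fell: it had 19.4 and 19.3 CPM in control and 10.8 and 7.98 CPM in MERVL-KD, with a log2 fold change of -1.04 ± 0.20 (SE; adjusted p = 0.00679). Both changes lay close to the 2-fold threshold. By library size alone Tigger23a had a log2 fold change of -0.97 and was not called. The calls were then 1 higher and 0 lower, beside 4.39% of all rows. Libraries were left out in one fit of the remaining 11 libraries of the 3 stages, so these values differ from the main ones in the fit as well as in the library. Both types kept their calls in the one fit of all 12 libraries. Without MERVL-KD 4-cell replicate 2 the value of Tigger23a was -0.88 (adjusted p = 0.0887). FordPrefect lost its call without control 4-cell replicate 2, at 0.79 (adjusted p = 0.0778). It came just under 2-fold, at adjusted p of 0.0156 and 0.0181, without either MERVL-KD 4-cell library. The same held, at adjusted p between 0.0031 and 0.00443, without either control 8-cell library or MERVL-KD 8-cell replicate 2, which enter that common fit but not the 4-cell comparison itself. Charlie1b, with the third smallest p among types with a lower level, had 14.4 and 12.8 CPM in control and 8.27 and 9.67 CPM in MERVL-KD (log2 fold change -0.59 ± 0.20, SE; adjusted p = 0.0871). After FordPrefect, the next smallest p values among types with a higher level belonged to the rare hAT-N1_Mam and Tigger9a, with 6 and 30 counts in the control libraries together and adjusted p = 0.231 and 0.340.

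**Figure D3:**
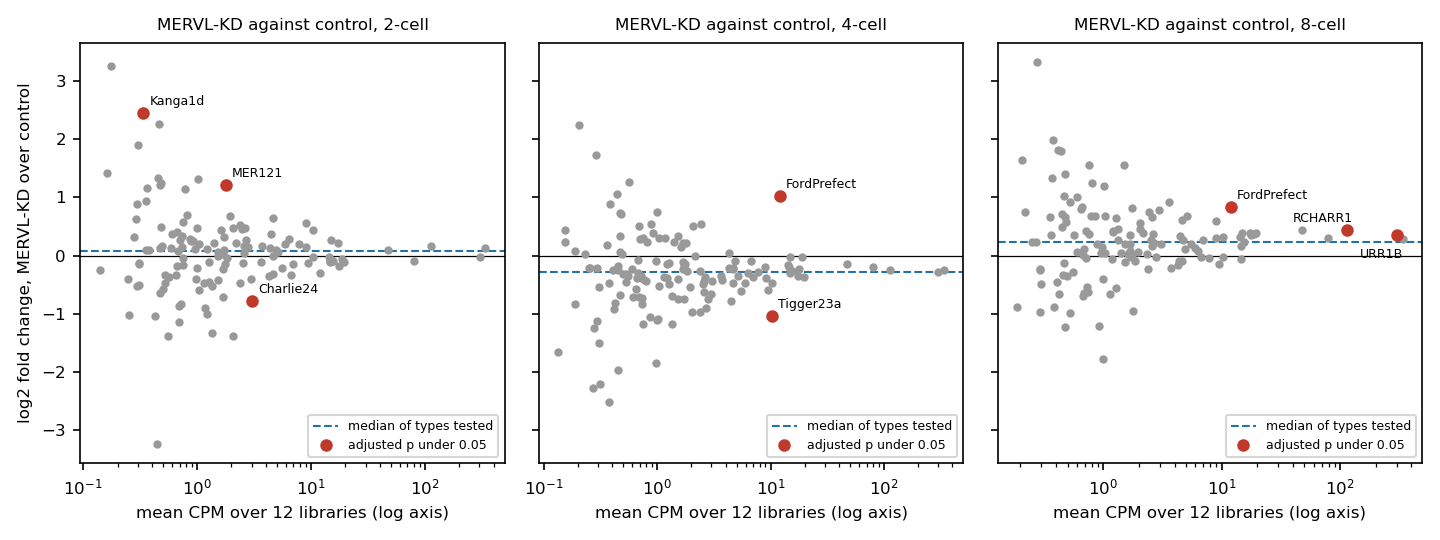
Log2 fold change of each tested DNA transposon type between MERVL-KD and control against its mean CPM over the 12 libraries on a log axis, at the 2-cell, 4-cell and 8-cell stages; red points have an adjusted p under 0.05 and the dashed line is the median of the types tested. The median is 0.07, -0.29 and 0.23 at the 3 stages, and FordPrefect lies above zero at the 4-cell and 8-cell stages.

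At the 8-cell stage the direction was the opposite one. Of 131 types tested, 91 had a higher and 40 a lower level in MERVL-KD, with a median log2 fold change of 0.23, beside 0.01 over all rows. In 53 types, or 40.5%, every MERVL-KD library lay above every control library, beside 24.4% of all rows, and in 14 types, or 10.7%, below, beside 25.3% of all rows. All of the 10 most abundant types had a higher level in MERVL-KD, with no overlap in any. None of the 131 types was called with the 2-fold threshold in edgeR, against 1.7% of all 19153 rows, 0.632% higher and 1.07% lower. DESeq2 called 0 as well, against 1.85% of all rows. In edgeR 19 of the 131 types had an unadjusted p under 0.05, beside 3738 of all 19153 rows.

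With no threshold on fold, 3 types rose and none fell, against 5.13% of all rows, 1.62% higher and 3.51% lower. FordPrefect had 13.0 and 12 CPM in control and 24.0 and 20.3 CPM in MERVL-KD, with a log2 fold change of 0.83 ± 0.17 (SE; adjusted p = 0.0176). RCHARR1 had 98.1 CPM in both control libraries and 131 and 132 CPM in MERVL-KD, with a log2 fold change of 0.43 ± 0.09 (SE; adjusted p = 0.0206). URR1B had 277 and 282 CPM in control and 343 and 368 CPM in MERVL-KD, with a log2 fold change of 0.36 ± 0.08 (SE; adjusted p = 0.0266). In each of these 3 both MERVL-KD libraries lay above both controls. URR1A, the partner of URR1B, had 333 and 321 CPM in control and 406 and 388 CPM in MERVL-KD (log2 fold change 0.29 ± 0.08, SE; adjusted p = 0.0606). Among types with a lower level the smallest p belonged to Tigger11a, with 49 and 51 counts in control and 20 and 17 in MERVL-KD (log2 fold change -1.77 ± 0.52, SE; adjusted p = 0.0754). MER121 followed with 1.63 and 1.64 CPM in control and 0.750 and 0.923 CPM in MERVL-KD (adjusted p = 0.307), on the other side of zero from its 2-cell value, and Zaphod3 with 21 and 24 counts in control and 17 and 7 in MERVL-KD (adjusted p = 0.440).

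The 4-cell and 8-cell comparisons share no library, so their values can be set side by side. In 30 of the 157 types tested over the 12 libraries, or 19.1%, MERVL-KD lay below control at the 4-cell stage and above it at the 8-cell stage with no overlap at either, beside 3.45% of all 24850 rows. All types were read from the same 2 libraries of a group, so their values can move together. This count, and the counts of types without overlap at single stages, do not hold independent replicates. The difference between stages was also tested type by type. From the 4-cell to the 8-cell stage the MERVL-KD effect changed for 2 of the 157 types, RCHARR1 and URR1B, against 0.64% of all rows. The change was 0.67 ± 0.14 for RCHARR1 and 0.64 ± 0.14 for URR1B on the log2 scale (SE; adjusted p = 0.0354 and 0.0361). The adjusted p of RCHARR1 lay between 0.0546 and 0.149 without either control 4-cell library, MERVL-KD 4-cell replicate 1, either control 8-cell library or MERVL-KD 8-cell replicate 1. That of URR1B lay between 0.0550 and 0.141 without control 4-cell replicate 2, MERVL-KD 4-cell replicate 1 or either control 8-cell library. The values themselves stayed between 0.56 and 0.76 over every setting tried for both types.

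From the 2-cell to the 4-cell stage the effect changed for FordPrefect, by 1.40 ± 0.34 (SE; adjusted p = 0.0211), and for Tigger23a, by -1.40 ± 0.36 on the log2 scale (SE; adjusted p = 0.0296), against 4.12% of all rows. FordPrefect had 1.79 and 2.12 CPM in control and 1.76 and 1.22 CPM in MERVL-KD 2-cell libraries, which did not overlap, with a log2 fold change of -0.30 ± 0.39 (SE; adjusted p = 0.684). Tigger23a had 4.94 and 6.77 CPM in control and 8.18 and 6.84 CPM in MERVL-KD 2-cell libraries (log2 fold change 0.44 ± 0.23, SE; adjusted p = 0.235). By library size alone the FordPrefect change was 1.10 (adjusted p = 0.0648). It lay between 1.16 and 1.31 with adjusted p from 0.0579 to 0.101 without control 2-cell replicate 2, MERVL-KD 2-cell replicate 2, control 4-cell replicate 2 or MERVL-KD 4-cell replicate 2. The Tigger23a change lay between -1.40 and -1.18 with adjusted p from 0.0599 to 0.131 without either replicate 1 of the 2-cell stage, either control 4-cell library or MERVL-KD 4-cell replicate 2. From the 2-cell to the 8-cell stage only FordPrefect differed, by 1.21 ± 0.34 (SE; adjusted p = 0.0469), against 3.98% of all rows, and this call was lost under 12 of 21 other settings, with values from 0.98 to 1.52.

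**Figure D4:**
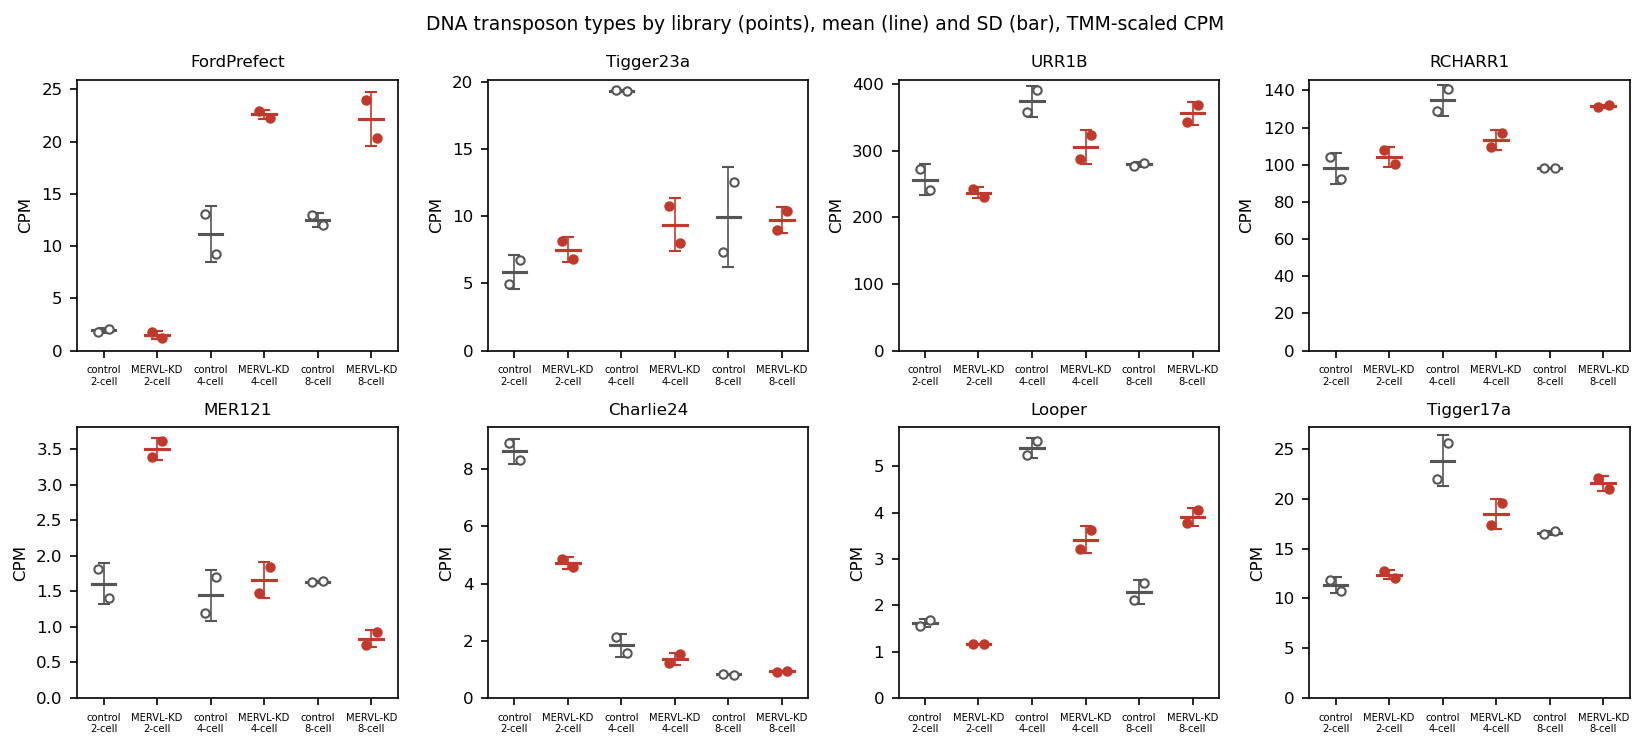
TMM-scaled CPM of 8 DNA transposon types in each library (points), with the mean (line) and SD (bar) of the 2 libraries of a group; control in grey and MERVL-KD in red. FordPrefect is higher in MERVL-KD at the 4-cell and 8-cell stages, Tigger23a is lower at the 4-cell stage, and URR1B, RCHARR1, Looper and Tigger17a lie below control at the 4-cell and above it at the 8-cell stage.

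In control embryos, the types as a class were at their lowest at the 2-cell stage and their highest at the 4-cell stage. Between these stages 26 of 157 types rose and 5 fell by at least 2-fold, against 44.1% of all rows called, 20.4% higher and 23.7% lower. In 81 types both 4-cell libraries lay above both 2-cell libraries, beside 38.5% of all rows, and in 21 below, beside 40.7%. The summed level went from 1050 ± 89.3 to 1587 ± 65.7 CPM (SD, n = 2), and 110 types had a higher and 47 a lower level at the 4-cell stage. The median log2 fold change was 0.50, beside -0.02 over all rows. Of the 31 called types, 10 were TcMar-Tigger types that rose and 1 that fell, 9 were hAT-Charlie types that rose and 2 that fell, and 4 were hAT-Tip100 types that rose and 1 that fell. FordPrefect had the smallest p, with a log2 fold change of 2.51 ± 0.24 (SE; adjusted p = 1.09e-08) from the 2-cell values above to 13.1 and 9.28 CPM. Tigger23a rose by 1.72 ± 0.26 (SE; adjusted p = 6.81e-06) and Tigger17a by 1.07 ± 0.17 on the log2 scale (SE; adjusted p = 1.27e-05).

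Charlie24 went the other way, from 8.93 and 8.31 to 2.13 and 1.56 CPM, and fell by 2.22 on the log2 scale (SE 0.34; adjusted p = 9.69e-06). Cheshire, a hAT-Charlie element, rose from 4.50 and 3.69 to 10.7 and 12.9 CPM (adjusted p = 3.7e-05). Looper, the piggyBac type, rose from 1.56 and 1.68 to 5.25 and 5.56 CPM (adjusted p = 0.000163). Tigger2b, MER5A and the rodent RMER30 rose by 1.37, 1.11 and 1.00 on the log2 scale (adjusted p = 0.000863, 0.000861 and 0.000817). RMER30 stood at the threshold itself and came under 2-fold with 9 of 22 other settings, among them control 2-cell replicate 2 left out (0.78) and control 4-cell replicate 1 or 2 or replicate 1 of the MERVL-KD 4-cell or 8-cell libraries left out (0.99 to 1.00). Tigger17a fell to 0.95 without control 4-cell replicate 2 and MER5A to 0.98 without control 4-cell replicate 1, each then under 2-fold. X1_DNA, a TcMar-Tigger type, had 0 counts in both control 2-cell libraries and 18 and 26 counts at the 4-cell stage, at least 15.5-fold higher against a floor of 3 counts over the 2-cell group (adjusted p = 0.00128). Among the most abundant types, URR1A rose by 0.79, URR1B by 0.54 and RCHARR1 by 0.46 on the log2 scale, each with an adjusted p under 0.05 but under 2-fold. With a library of these groups left out, between 15 and 20 types were called. There were 20 without control 2-cell replicate 1 and 17 without control 2-cell replicate 2, beside 34.6% and 34.5% of all rows. There were 16 without control 4-cell replicate 1 and 15 without control 4-cell replicate 2, beside 35.8% and 34.9% of all rows.

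In control embryos the types were lower at the 8-cell than at the 4-cell stage. Both stages carry the same day label, so this compares embryos by cell number and not by time. Of 157 types, 3 fell by at least 2-fold and none rose, against 1.55% of all rows, 0.467% higher and 1.08% lower. At the 8-cell stage 114 types had a lower level, 74 of them with no overlap, beside 24.7% of all rows, and 12 a higher level with no overlap, beside 23.9%. The median log2 fold change was -0.39, beside -0.03 over all rows, and the summed level went to 1212 ± 2.93 CPM (SD, n = 2). MER45R, a hAT-Tip100 element, went from 2.95 and 2.99 to 0.907 and 0.704 CPM and fell by 1.88 on the log2 scale (SE 0.48; adjusted p = 0.0218). Arthur1, of the same branch, went from 4.85 and 4.03 to 2.39 and 1.37 CPM and fell by 1.24 (SE 0.33; adjusted p = 0.0266). Looper went from 5.25 and 5.56 to 2.10 and 2.48 CPM and fell by 1.24 (SE 0.33; adjusted p = 0.0306). With no threshold on fold, 8 types fell and none rose, against 6.14% of all rows, 3.12% higher and 3.02% lower. URR1A, URR1B, RCHARR1 and Tigger5b_Glire were among them, at -0.40, -0.42, -0.46 and -0.61. Without control 4-cell replicate 1 or 2 no type was called with the fold threshold, beside 0.909% and 1.12% of all rows. Without control 8-cell replicate 1 or 2 there was 1. Looper and MER45R each lost the call without any of these 4 libraries, and Arthur1 without either control 4-cell library or control 8-cell replicate 2.

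In MERVL-KD embryos types also went up to the 4-cell stage, and the test of the MERVL-KD effect between these stages, given above, is the test of the difference from controls. Of 157 types, 9 rose and 6 fell by at least 2-fold, against 43.1% of all rows, 20.7% higher and 22.4% lower, and the median log2 fold change was 0.26. Groups did not overlap for 63 types with a higher level at the 4-cell stage, beside 38.3% of all rows, and for 28 with a lower level, beside 40.2%. By library size alone, 7 rose and 8 fell, beside 42.8% of all rows called. The summed level went from 1023 ± 48.0 to 1328 ± 119 CPM (SD, n = 2). FordPrefect rose from 1.76 and 1.22 to 22.9 and 22.3 CPM, by 3.91 ± 0.25 on the log2 scale (SE; adjusted p = 1.59e-11). Looper, MER115, Tigger10 and Charlie22a rose by 1.55, 1.42, 1.65 and 1.68 (adjusted p = 0.000602, 0.00402, 0.00531 and 0.0139). Charlie24 fell by 1.79 and the Tc2-like Kanga11a by 2.93 on the log2 scale (adjusted p = 0.000139 and 0.0013). Tigger9a had 3 and 0 counts in the 2-cell and 35 and 33 counts in the 4-cell libraries, a level 24.8-fold higher with a 95% counting interval of 8.15 to 123 (adjusted p = 0.00138). MER96B had 7 and 9 counts in the 2-cell and 35 and 30 counts in the 4-cell libraries (adjusted p = 0.0271). Charlie4z had 70 and 52 counts and then 2 and 22 (adjusted p = 0.0260). MER96B was not called without any one of the 4 libraries compared (adjusted p from 0.0638 to 0.150), Charlie4z without either MERVL-KD 2-cell library or MERVL-KD 4-cell replicate 1 (0.0604 to 0.225), and Charlie22a without MERVL-KD 2-cell replicate 1 or MERVL-KD 4-cell replicate 2 (0.0867 and 0.0559) or in a fit of the 4 libraries compared (0.0518).

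From the 4-cell to the 8-cell stage of MERVL-KD embryos no type was called, against 1.59% of all rows, 0.322% higher and 1.27% lower. DESeq2 called 0, against 2.19% of all rows. In edgeR 14 of the 157 types had an unadjusted p under 0.05, beside 4501 of all 24850 rows. The median log2 fold change was 0.09, beside -0.04 over all rows, and 98 types had a higher and 59 a lower level at the 8-cell stage. Without overlap these were 45 and 24, beside 21.8% and 23.7% of all rows. The summed level went from 1244 and 1412 to 1480 and 1510 CPM, with no overlap, a log2 ratio of 0.17. By library size alone this ratio was 0.04 and the groups overlapped, at 0.137% and 0.146% of all counts in 4-cell and 0.149% and 0.142% in 8-cell libraries. With that scaling the median of the types was -0.04, while that of all rows was -0.17. FordPrefect stayed where it was at the 4-cell stage, with 24.0 and 20.3 CPM.

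The other classes of repeats are given for scale, with no test between classes. In the comparison of MERVL-KD with control, the median log2 fold change of the DNA transposon, LINE, SINE and LTR types tested was 0.07, 0.17, 0.12 and 0.13 in 2-cell embryos. At the 4-cell stage these medians were -0.29, -0.17, -0.16 and -0.15, and at the 8-cell stage they were 0.23, 0.12, 0.32 and 0.17. The sign was thus shared by the medians of the 4 classes at each stage, but not by their summed levels. The SINE sum was 12.1% higher in MERVL-KD at the 4-cell stage, with overlapping groups. At the 2-cell stage the DNA transposon sum was 2.54% lower, with overlapping groups, and the LTR sum 68.5% lower. The LTR sum was also 30.3% lower at the 8-cell stage. The LINE sum had the sign of its median at the 8-cell stage, 0.334% higher with overlapping groups. Protein-coding and other genes had medians of 0.01, 0.03 and 0.01. By adjusted p alone at the 8-cell stage, 3 of 131 DNA transposon, 1 of 118 LINE, 16 of 31 SINE and 15 of 448 LTR types were higher. Lower were 0, 1, 0 and 13, beside 1.62% of all rows higher and 3.51% lower. The test of the difference between the 4-cell and 8-cell stages called 2 of 157, 0 of 130, 5 of 34 and 2 of 476 types. All of these were higher, beside 0.64% of all rows called. In control embryos the medians of the 4 classes were 0.50, 0.34, 0.79 and 0.30 from the 2-cell to the 4-cell stage and -0.39, -0.43, -0.33 and -0.31 from the 4-cell to the 8-cell stage. The summed LTR types, to which MERVL belongs, were 68.5%, 45.6% and 30.3% lower in MERVL-KD at the 3 stages.

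**Figure D5:**
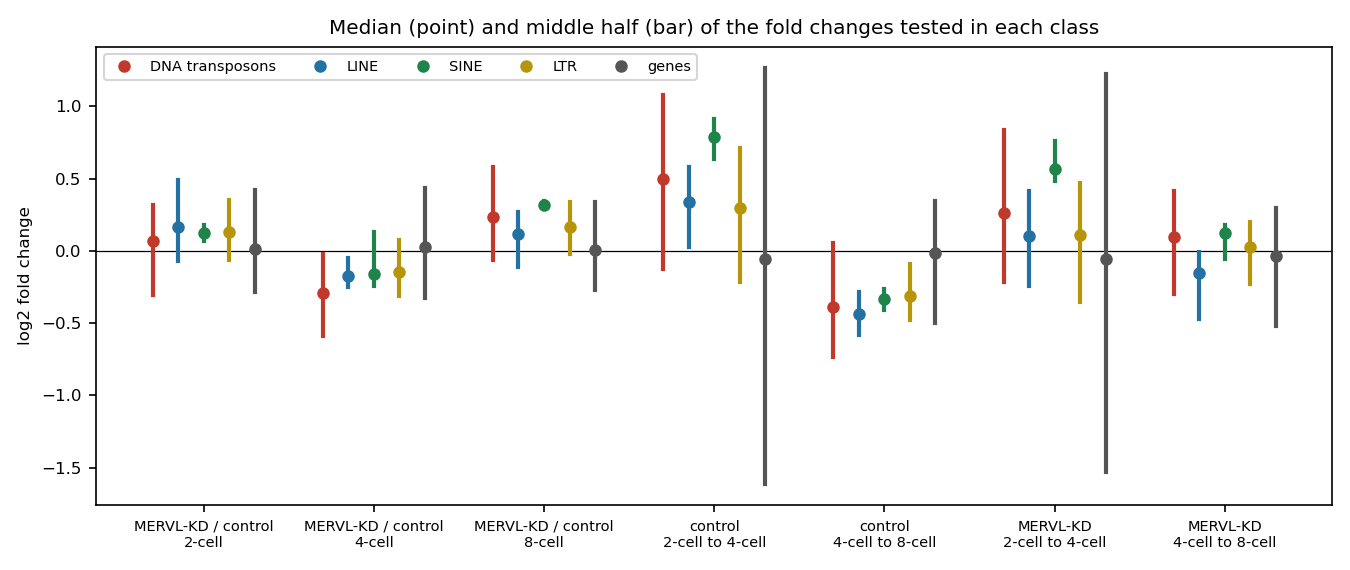
Median (point) and interquartile range (bar) of the log2 fold changes of the rows tested in each comparison, for DNA transposon, LINE, SINE and LTR repeat types and for genes. The medians of the 4 repeat classes lie below zero for MERVL-KD against control at the 4-cell stage (-0.29 for DNA transposons) and above zero at the 8-cell stage (0.23 for DNA transposons).

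Mammalian genomes also hold genes descended from DNA transposases. A list of 27 such genes was read beside the repeat types: Tigd, Jrk, Pogk, Pogz and Cenpb genes are related to pogo and Tigger transposases, Pgbd genes to piggyBac, Thap genes to P elements and Zbed genes to hAT elements. Of these, 26 had a row and 22 to 24 were tested in a comparison. At the 2-cell stage Tigd3 rose in MERVL-KD (log2 fold change 1.02; adjusted p = 0.00199) and Cenpb, whose protein binds centromeric repeats, fell by 1.21 on the log2 scale (adjusted p = 0.0279), 2 of 24 genes tested beside 6.47% of all rows. Gtf2ird2 passed the adjusted p there and rose by 0.88, under 2-fold (adjusted p = 0.0330). At the 4-cell stage Zbed3 was the one gene of the list past the adjusted p, and rose by 0.64 on the log2 scale, under 2-fold (adjusted p = 0.0091). In control embryos 2 genes of the list rose and 9 fell, of 24 tested, from the 2-cell to the 4-cell stage. Of all rows, 20.4% were called higher and 23.7% lower. The median log2 fold change of the list was -0.99, beside -0.02 over all rows. Thap4 rose from 11.6 to 46.7 CPM, and Zbed3, by far the most abundant transcript of the list, fell from 5092 to 76.9 CPM in the group means. The recombinase genes Rag1 and Rag2 did not pass the filter on low values in any comparison.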

How the data were processed

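RNA was measured in 12 libraries. As the authors' methods and processing notes state, reads were aligned to GRCm38/mm10 with STAR 2.5.3a, keeping unique alignments only, and counted with featureCounts on genes and on RepeatMasker copies, summed by type. The deposited values are raw counts per gene and repeat type, with a mean copy length in bases. Reads on near-identical copies are lost by this counting, so young families are undercounted. Even numbers made up 50.4% to 63.2% of small member counts, so whether mates were counted singly is unsettled.

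The counts were tested with edgeR 4.0.16 in R 4.3.3 (filterByExpr, TMM scaling, quasi-likelihood test, Benjamini-Hochberg adjustment over all rows tested). MERVL-KD was compared with control in the 4 libraries of a stage. Stage changes and differences between stages came from one fit of the 12 libraries. A call needed an adjusted p under 0.05 and, except for differences between stages, a 2-fold change. Sums are TMM-scaled CPM with no test. The members and lists were chosen with earlier results of these data known. Types were named where they had the 10 highest mean levels in CPM or per kilobase, the calls of a comparison (at most 10 by adjusted p), or the 3 smallest p in each direction of a MERVL-KD comparison. The correlation of same-numbered libraries' deviations lay between -0.0354 and 0.0224 and gave no sign of pairing by number. With 2 libraries a group it cannot exclude a shared day or batch. Alternatives were other scalings, filters, DESeq2 1.42.0, halved counts, a replicate block and each library left out. The script was tested on simulated data. The 12 ATAC libraries were not analysed here.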

Additional observations from a re-analysis of the deposited data

Results flagged for a closer look

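Differences in the MERVL-KD effect between stages were past the adjusted p of edgeR's quasi-likelihood test for 4 types. From the 2-cell to the 4-cell stage the log2 effect of MERVL-KD changed by 1.40 for FordPrefect (adjusted p = 0.0211) and by -1.40 for Tigger23a (adjusted p = 0.0296). From the 4-cell to the 8-cell stage it changed by 0.64 for URR1B (adjusted p = 0.0361) and by 0.67 for RCHARR1 (adjusted p = 0.0354). From the 2-cell to the 8-cell stage it changed by 1.21 for FordPrefect (adjusted p = 0.0469). Each of these calls was lost when some single libraries were left out, as given with the values in the report.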

How the results depend on the processing

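Whether a named type was called or not stayed the same in 895 alternative values. A call was lost in 99 and gained in 1, and none of these values changed sign. The 895 include types called in neither fit, such as BLACKJACK at the 2-cell stage. Calls differed in how often they were lost. MER121 and Kanga1d at the 2-cell stage lost theirs in 13 of 22 and 13 of 21 values. FordPrefect from the control 2-cell to 4-cell stage lost its call in 0 of 22. By library size alone the calls were 4 and 1 for MERVL-KD in 2-cell and 4-cell embryos, beside 9.61% and 4.39% of all rows. From the control 4-cell to 8-cell stage they were 7, all lower, beside 2.47% of all rows. The 4-cell against 2-cell difference had 5, 0 higher and 5 lower where the main values were 1 and 1, beside 6.51% of all rows. The 8-cell against 2-cell difference then had 1 lower call, beside 4.98% of all rows, in place of 1 higher, FordPrefect. The log2 ratio of the sums was 0.33 in 2-cell and 0.44 in 8-cell embryos. With DESeq2 size factors the 8-cell against 2-cell difference had 0 calls, beside 3.94% of all rows, and the 8-cell ratio was 0.26. That difference had 2 calls with rows of at least 1 count, 2 with counts halved and 4 in DESeq2. The shares of all rows were then 2.82%, 5.15% and 6.23%. At the 8-cell stage 1 type was called higher with rows of at least 1 count, beside 1.33% of all rows. With at least 10 counts in every library 1 type, Tigger11a, was called lower instead, beside 1.96%. With at least 10 counts the 2-cell stage had 1 call, and in one fit of the 12 libraries 0, beside 6.35% and 3.69% of all rows. With no threshold on fold the calls were 3 at the 8-cell stage, 8 from the control 4-cell to 8-cell stage and 32 from the MERVL-KD 2-cell to 4-cell stage. The shares of all rows were then 5.13%, 6.14% and 53.7%. The cause of these shifts was not tested.

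Leaving out each library in turn gave 0, 1 to 2 and 0 calls for MERVL-KD against control in 2-cell, 4-cell and 8-cell embryos. For the control stage changes it gave 15 to 32 and 0 to 3 calls, and for the MERVL-KD stage changes 10 to 14 and 0. The differences between stages had 0 to 2 (4-cell against 2-cell), 0 to 3 (8-cell against 4-cell) and 0 to 2 (8-cell against 2-cell). The log2 ratios of the sums lay between -0.12 and 0.05, -0.35 and -0.17, and 0.29 and 0.32 at the 3 stages. The calls above came from one fit of the libraries kept. With all 12 libraries that fit called 0, 2 and 0 types for MERVL-KD against control, beside 3.69%, 4.28% and 1.81% of all rows. The 0 at the 2-cell stage thus came with the change of fit. With no library left out, 44.1%, 1.55%, 43.1% and 1.59% of all rows were called for the stage changes. For the differences these shares were 4.12%, 0.64% and 3.98%.

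With the replicate number as a block, 2, 2 and 0 types were called for MERVL-KD at the 3 stages, beside 6.26%, 4.00% and 2.20% of all rows. For the control stage changes 28 and 3 were called, beside 43.2% and 1.42% of all rows. For the MERVL-KD stage changes 14 and 0 were called, beside 42.2% and 1.55%. The differences between stages had 2, 2 and 1 calls, beside 4.02%, 0.636% and 4.04%. The labels give these samples only a shared number, and whether they share a day or mice is not stated.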

Other observations

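The log2 CPM of each type over the 12 libraries was correlated with that of the sum of the other types, the type itself being left out. This was done for types with at least 10 counts in every library. The highest Pearson correlations were those of URR1B, Tigger17a and URR1A. URR1A and URR1B each stayed in the sums used for the other types. Those with the lowest were Charlie6, Charlie24 and MER121. Charlie6 had 0.988 and 1.65 CPM in control 2-cell, 2.07 and 1.39 CPM in MERVL-KD 2-cell and 0.567 and 0.521 CPM in control 4-cell libraries.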
